A study of Mus musculus with 23 samples.

Results

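Expression of 10 genes of the stomach and gut was followed in sorted mouse lung tumor cells: Hnf4a, Foxa3, Ctse, Lgals4, Gkn1, Tff1, Tff2, Pdx1, Cdx2 and Vil1. They were chosen by name, as genes known to come on in lung tumors that lose NKX2-1, and all 10 were found among the 35455 genes of one table of normalized counts and the 35454 of another. RNA was sequenced from tdTomato-positive cells sorted from lungs in which Cre recombinase, delivered by an adenovirus with an Sftpc promoter, switched on a Braf allele (CAT/+) that makes BRAF V600E and tdTomato together in alveolar type 2 (AT2) cells. In all 23 libraries the cells carried this allele. The first table held 6 libraries with no further allele (BRAF, 1 at 2 weeks, 3 at 6 weeks and 2 at 12 weeks after induction) and 8 that also carried an allele encoding PI3Kα H1047R, HR/+ (BRAF/PI3K, written BRAF / PIK3CA in the plots, 2 at 2 weeks, 4 at 6 weeks and 2 at 12 weeks). The second held 12 week tumors only, 5 with 1 mutant copy of Ppargc1a (PGC1a Het) and 4 with both copies mutant (PGC1a Null). These copies are floxed alleles recombined by the same Cre, and the gene encodes PGC1a, a coactivator of mitochondrial genes. The mice were 3 to 4 months old and of a mixed C57BL/6, 129 and FVB background. Those kept to 12 weeks received less virus than those killed at 2 or 6 weeks, so week and viral dose cannot be told apart in comparisons with 12 weeks.

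NKX2-1 is the transcription factor that sets lung and thyroid identity, and in AT2 cells it drives the surfactant genes together with FOXA1 and FOXA2. When it is lost from lung tumor cells, FOXA factors are known to bind elsewhere and genes of the related foregut and hindgut come on, among them the gene for the nuclear receptor HNF4α. HNF4α and FOXA3 are transcription factors of liver and gut epithelium, PDX1 of the pancreas, duodenum and gastric antrum, and CDX2 of the intestine. Cathepsin E (Ctse) is an aspartic protease of gastric surface cells, gastrokine 1 (Gkn1) and the trefoil peptides TFF1 and TFF2 are secreted by the gastric mucosa, galectin 4 (Lgals4) is a gut lectin, and villin (Vil1) bundles actin in the brush border.

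Promoter sequence was available in the RefSeq table (GRCm38.p6) for 7 of the 10 genes, namely Hnf4a, Foxa3, Lgals4, Vil1, Gkn1, Pdx1 and Cdx2. The 250 bases upstream of each start were searched on both strands for the forkhead letters TGTTTAC and TGTTTGC, the HNF4 letters CAAAGTCCA, the NKX2-1 core CACTTG and the HNF1 half-site GTTAAT. None of these searched words contains or is contained in another. Sequence is shown for both starts of Hnf4a, for Foxa3, the gene with the clearest difference between genotypes, and for Cdx2, the 1 member with a forkhead match, 5′ to 3′ on the strand of the gene and without bases that GENCODE vM21 places in a protein-coding transcript of the gene. Capitals mark matches. The upstream start of Hnf4a (plus strand) lies at chr2:163506607-163506807 and the downstream start (plus strand) at chr2:163546905-163547154, Foxa3 (minus strand) at chr7:19023540-19023789 and Cdx2 (minus strand) at chr5:147307271-147307499.
Hnf4a upstream start: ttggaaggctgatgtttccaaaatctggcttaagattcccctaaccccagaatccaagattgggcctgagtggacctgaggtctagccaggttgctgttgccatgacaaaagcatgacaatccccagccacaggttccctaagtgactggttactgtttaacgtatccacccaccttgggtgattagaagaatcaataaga
Hnf4a downstream start: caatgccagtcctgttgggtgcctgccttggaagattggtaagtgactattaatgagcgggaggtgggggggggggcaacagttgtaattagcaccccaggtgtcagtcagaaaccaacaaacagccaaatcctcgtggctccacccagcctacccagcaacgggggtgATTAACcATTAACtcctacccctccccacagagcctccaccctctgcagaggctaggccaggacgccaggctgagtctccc
Foxa3: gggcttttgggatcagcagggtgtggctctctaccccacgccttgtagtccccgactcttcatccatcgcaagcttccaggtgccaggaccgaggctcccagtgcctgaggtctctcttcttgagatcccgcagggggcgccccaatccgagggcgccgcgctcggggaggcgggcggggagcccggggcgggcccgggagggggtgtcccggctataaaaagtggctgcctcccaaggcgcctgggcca
Cdx2: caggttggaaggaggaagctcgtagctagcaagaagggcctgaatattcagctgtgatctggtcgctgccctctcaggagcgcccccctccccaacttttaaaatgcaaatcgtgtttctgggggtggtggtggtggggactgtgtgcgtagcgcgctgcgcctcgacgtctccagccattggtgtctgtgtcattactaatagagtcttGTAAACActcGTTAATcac
The downstream Hnf4a window held 2 HNF1 half-sites on the minus strand, which ended 75 and 68 bases before the start. The Cdx2 window held TGTTTAC on the minus strand and GTTAAT on the plus strand, 33 and 24 bases before the start, and the Pdx1 window held 1 NKX2-1 core. No searched letters were found in the windows of Foxa3, Lgals4, Vil1, Gkn1 or the upstream start of Hnf4a. Over all 32851 windows, 3.17% held TGTTTAC, 4.30% TGTTTGC, 0.384% CAAAGTCCA, 11.6% CACTTG and 6.43% GTTAAT. Distances are from the RefSeq start, and gene-level values sum the transcripts from both Hnf4a starts, which were not separated. On the gene models of GENCODE vM21 the other measured members lie on chromosome 1 from 131638306 to 131675505 (Ctse, plus strand), on chromosome 7 from 28833854 to 28841708 (Lgals4, plus strand) and on chromosome 1 from 74409376 to 74435559 (Vil1, plus strand).

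Totals of the normalized values ranged from 16433800 to 20287300 a library in the first table and from 7115750 to 9159570 in the second. Markers of AT2 cells were abundant throughout, and all 13 were above 0 in some library of either table. However, 3 BRAF/PI3K libraries stood apart. Both 2 week libraries and replicate 1 at 6 weeks had summed AT2 markers of 170670, 85601 and 320787, against 571041 to 1567370 in BRAF. Their summed endothelial markers (10 genes) were 119431, 115511 and 163450, against 8995 to 88346 in BRAF. In the second table the same endothelial sum was 404 to 1016 in PGC1a Het and 1882 to 2604 in PGC1a Null, and the summed airway secretory and goblet markers (9 genes, Tff2 among them) were 1542 to 3308 and 4856 to 23994. Summed macrophage markers (10 genes) were 1543 to 7666 in BRAF and 3050 to 13046 in BRAF/PI3K apart from replicate 1 at 12 weeks, which had 30250. In the second table they were 479 to 3695 in PGC1a Het and 1565 to 12200 in PGC1a Null. By label 5 BRAF libraries were female and 1 male, against 3 and 5 in BRAF/PI3K. At 12 weeks the Y-linked transcript Kdm5d went against the sex labels of both BRAF/PI3K libraries. It was 502 where the label says male and 4728 where it says female, while the other BRAF/PI3K and BRAF libraries followed their labels. In the second table Kdm5d was 228 to 962 under female labels and 1291 to 1941 under male labels, a narrower gap. Ppargc1a, the gene targeted in the second table, had 75.8 to 561 normalized counts in PGC1a Het and 38.0 to 124 in PGC1a Null. The groups overlapped, but these gene-level values do not separate the floxed exons and so do not measure loss of PGC1a. Pik3ca mRNA does not report the point mutation.

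Hnf4a, Foxa3, Ctse, Lgals4 and Vil1 had a mean of at least 10 normalized counts in both tables, and Gkn1, Tff1, Tff2, Pdx1 and Cdx2 were below 10 in both. Nearest to this limit were Vil1 on the upper side, with a mean of 23.3 in the first table, and Gkn1 on the lower side, with 2.59 in the second. Per kilobase of the longest coding transcript, the order of mean levels in the first table was Ctse (139 normalized counts per kb), Hnf4a (47.2), Lgals4 (25.3), Foxa3 (17.5) and Vil1 (7.47). In the second table it was Hnf4a (99.7), Ctse (48.2), Lgals4 (26.1), Foxa3 (16.2) and Vil1 (15.02). The ranges over libraries of neighbouring genes in these orders overlapped in every case. Nkx2-1 itself was far above them in every library, at 699 to 1972 normalized counts per kb in the first table and 629 to 1080 in the second.

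**Figure D1:**
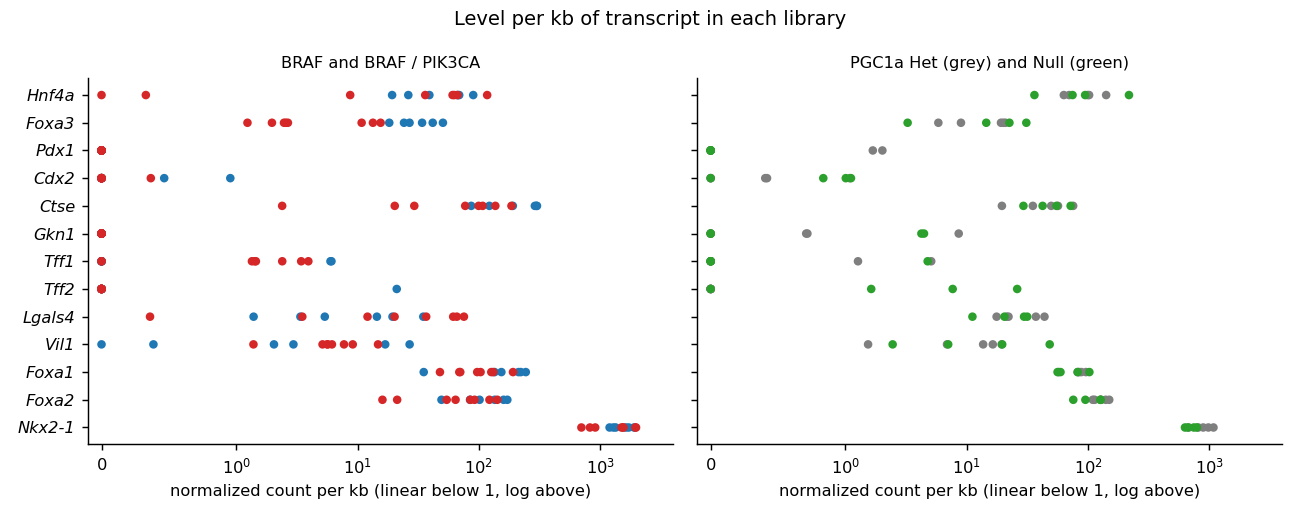
Normalized count per kilobase of the longest coding transcript in each library (horizontal, linear below 1 and logarithmic above) for the 10 genes and for Foxa1, Foxa2 and Nkx2-1. Points are libraries, coloured blue for BRAF and red for BRAF/PI3K on the left, grey for PGC1a Het and green for PGC1a Null on the right. Gkn1 and Pdx1 are at 0 in all 14 libraries on the left, while Nkx2-1 lies at 629 or above in every library.

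The other 5 members were close to or at 0 in most libraries. Gkn1 and Pdx1 were listed at 0 in all 14 libraries of the first table. Tff2 was listed above 0 in 1 of the 14, a BRAF tumor at 12 weeks (replicate 2), with 12.3 normalized counts. Cdx2 was above 0 in 3 libraries and Tff1 in 8, and neither exceeded 4.28 in any. In the second table the highest values were 10.7 for Gkn1, 15.2 for Tff2, 4.35 for Pdx1, 3.58 for Tff1 and 2.51 for Cdx2. None of these 5 genes entered the test across genes with a mean of at least 10.

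Foxa3 differed most clearly between genotypes. BRAF tumors had 49.1 normalized counts at 2 weeks, 69.2, 37.1 and 84.7 at 6 weeks, and 54.6 and 103 at 12 weeks. BRAF/PI3K tumors had 5.21 and 4.01 at 2 weeks, 2.52, 21.98, 27.2 and 5.04 at 6 weeks, and 5.42 and 31.5 at 12 weeks. Every BRAF/PI3K library was below every BRAF library, at each week and over all weeks, a complete separation seen for 22 of the 17558 genes tested (0.125%). The means were 12.9 ± 11.9 (SD, n = 8) and 66.3 ± 24.3 (SD, n = 6), and the difference in log2 (normalized count + 1) was -2.69 ± 0.55 (SE). A two-sided exact permutation test over all 3003 assignments of the labels gave p = 0.00167, and with labels permuted within weeks (630 arrangements) p = 0.00159. Adjusted over all genes tested, however, the limma p-value was 0.148, so Foxa3 was not among the 4 genes called (0.0228% of those tested). Without the 3 libraries rich in endothelial markers the Foxa3 difference was smaller, -2.06 against -2.69 on the log2 scale, with means of 18.2 (n = 5) and 66.3 (n = 6) and an exact permutation p of 0.00216, the smallest that 462 assignments allow. The differences at 2, 6 and 12 weeks were -3.17, -2.50 and -2.39 on the log2 scale. Relative to Nkx2-1 of the same library, Foxa3 was lower in BRAF/PI3K by -2.47 (log2, exact permutation p = 0.000999).

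Ctse, for the gastric protease, also lay lower in BRAF/PI3K over all weeks, in a difference that rested on few libraries. BRAF tumors had 639 normalized counts at 2 weeks, 633, 404 and 614 at 6 weeks, and 259 and 184 at 12 weeks. BRAF/PI3K tumors had 5.08 and 43.0 at 2 weeks, 62.3, 290, 164 and 211 at 6 weeks, and 394 and 228 at 12 weeks. The groups were separate at 2 and at 6 weeks and interleaved at 12 weeks. At 2 weeks this set 2 libraries against 1, and the share of all genes separate there was not counted. Over all weeks the means were 175 ± 133 (SD, n = 8) in BRAF/PI3K and 456 ± 203 (SD, n = 6) in BRAF, a log2 difference of -1.96 ± 0.77 (SE). The exact permutation p was 0.0266 and the limma p adjusted over all genes was 0.657. With labels permuted within weeks the exact permutation p for Ctse was 0.0270. Relative to Nkx2-1 of the same library the difference was -1.74 (log2, exact permutation p = 0.0183). Without the 3 libraries rich in endothelial markers the Ctse difference was -0.74 (exact permutation p = 0.0931). Without the 2 week libraries it was -0.94 (exact permutation p = 0.0931). Leaving out the 2 week BRAF library or BRAF replicate 1 or 3 at 6 weeks raised the exact permutation p for Ctse to 0.0583, 0.0575 and 0.0559. The part of endothelial RNA in the Ctse difference was not tested. In these bulk samples, fewer cells of a type and less RNA per cell cannot be told apart.

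Foxa3 and Ctse were thus the 2 of 5 measured members with an unadjusted limma p below 0.05 in this comparison, where 6.83% of all genes tested had one. With sex as a factor the unadjusted limma p was 0.00128 for Foxa3 and 0.0687 for Ctse. The 5 went both ways, 3 lower and 2 higher, and their median log2 difference of -1.72, against 0.02 over all genes, was the value of Hnf4a. At 6 weeks the median was -0.40, and 0.55 without the 3 libraries rich in endothelial markers. Over all weeks without these libraries it was again the value of Hnf4a, then 0.51.

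**Figure D2:**
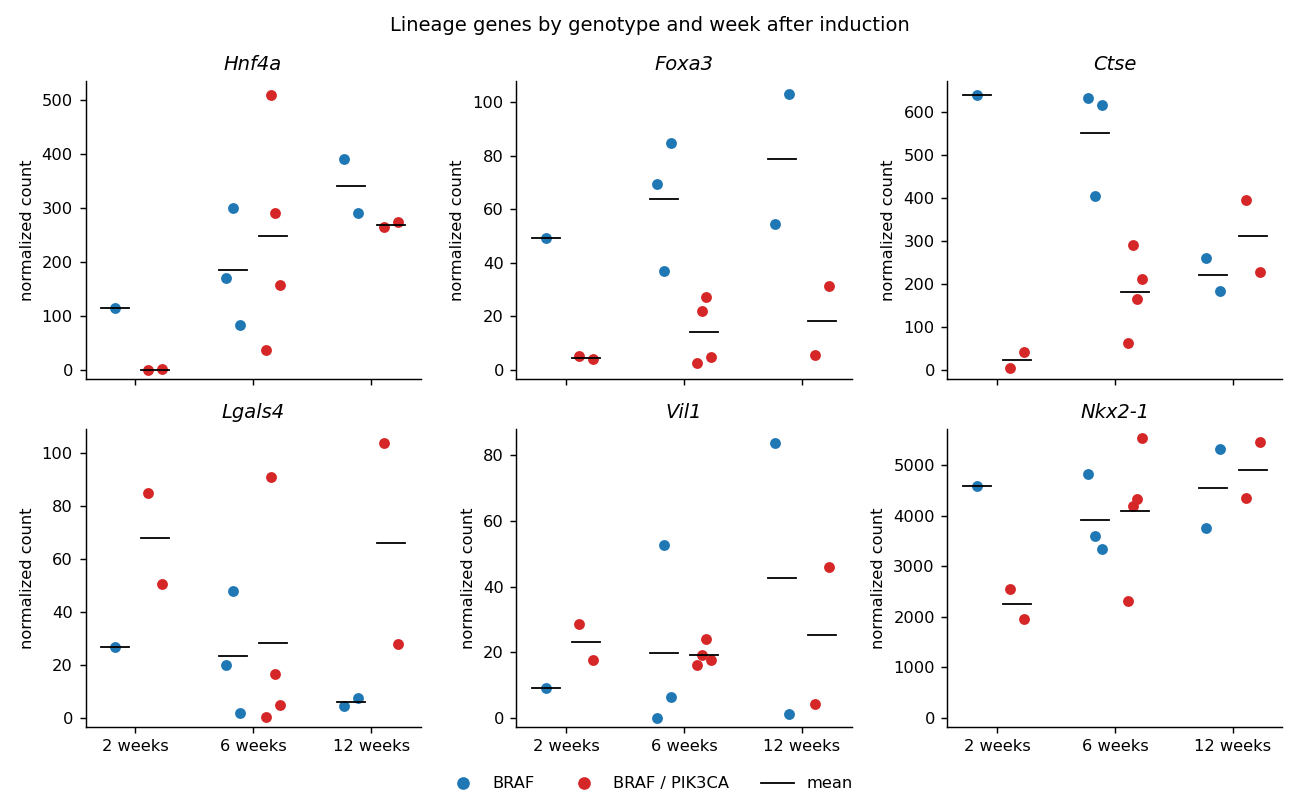
Normalized counts (vertical) of Hnf4a, Foxa3, Ctse, Lgals4, Vil1 and Nkx2-1 by week after induction (horizontal). Points are libraries, blue for BRAF and red for BRAF/PI3K, and lines are group means. For Foxa3 all red points lie at or below 31.5 and all blue points at or above 37.1, while for Hnf4a both 2 week BRAF/PI3K libraries lie at or near 0.

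Hnf4a did not separate the genotypes over all weeks. BRAF tumors had 114 normalized counts at 2 weeks, 170, 299.9 and 83.9 at 6 weeks, and 391 and 290.4 at 12 weeks. BRAF/PI3K tumors were listed at 0 and 1.43 at 2 weeks, had 37.9, 509.8, 290.5 and 157 at 6 weeks, and 264 and 273 at 12 weeks. The first 2 of these were the lowest of the table, and the groups overlapped at 6 weeks. At 12 weeks both BRAF/PI3K values were below both BRAF values. That order rested on 2 libraries against 2, and its share over all genes was not counted. The pooled log2 difference was -1.72 ± 1.28 (SE, exact permutation p = 0.308, adjusted p = 0.805 by limma), and at 6 weeks it was 0.09 ± 0.76 (SE). Without the 3 libraries rich in endothelial markers the pooled Hnf4a difference was 0.51 (exact permutation p = 0.303).

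Lgals4 and Vil1 overlapped between genotypes over all weeks. Lgals4 had 26.8 normalized counts in BRAF at 2 weeks, 19.9, 48.1 and 1.92 at 6 weeks, and 4.67 and 7.42 at 12 weeks. In BRAF/PI3K it had 84.9 and 50.8 at 2 weeks, 0.498, 91.0, 16.7 and 4.84 at 6 weeks, and 104 and 27.9 at 12 weeks. The BRAF/PI3K libraries were higher than the BRAF libraries of the same week at 2 and 12 weeks, and the groups overlapped at 6 weeks. Groups this small (2 libraries against 1, and 2 against 2) separate easily, and the share of all genes doing so was not counted. The pooled log2 difference was 1.03 ± 0.96 (SE, exact permutation p = 0.341), and it was 0.61 without BRAF replicate 3 and 1.62 without BRAF/PI3K replicate 1 at 6 weeks. The highest value, 104, came from the library with the most macrophage marker signal, whose part in it was not tested. Lgals4 was thus high in the same 2 week BRAF/PI3K libraries in which Hnf4a, Foxa3 and Ctse were low.

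Vil1, the brush border gene, had 9.24 normalized counts in BRAF at 2 weeks, 0, 52.7 and 6.38 at 6 weeks, and 83.8 and 1.20 at 12 weeks. In BRAF/PI3K it had 28.5 and 17.6 at 2 weeks, 16.05, 19.2, 24.1 and 17.6 at 6 weeks, and 4.32 and 46.0 at 12 weeks. The BRAF/PI3K values fell inside the range of the BRAF values. The pooled log2 difference was 1.04 ± 0.88 (SE, exact permutation p = 0.296), while the means of the normalized counts went the other way, 21.7 in BRAF/PI3K and 25.6 in BRAF. Without BRAF replicate 1 at 6 weeks, the library at 0, the log2 difference was 0.39, and without BRAF replicate 1 at 12 weeks it was 1.67.

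At 6 weeks, the one time point with at least 3 libraries of each genotype, Foxa3 and Ctse again lay lower in BRAF/PI3K. The log2 differences were -2.50 ± 0.83 (SE) for Foxa3 and -1.76 ± 0.65 (SE) for Ctse. In both genes all 4 BRAF/PI3K libraries were below all 3 BRAF libraries, as in 2.6% of all genes tested. The exact permutation test over 35 assignments gave p = 0.0857 for Foxa3 and 0.0571 for Ctse, where the smallest p it allows is 0.0286. The unadjusted limma p was below 0.05 for these 2 of 5 members and for 4.24% of all genes, and the adjusted p was 1 for both members (4 genes called, 0.0228%). Hnf4a, Lgals4 and Vil1 had log2 differences of 0.09 ± 0.76, -0.40 ± 1.28 and 1.45 ± 1.40 (SE). Their signs or sizes depended on single libraries. Leaving out 1 of the 6 week libraries at a time, Hnf4a ranged from -0.43 (without BRAF/PI3K replicate 2) to 0.81 (without BRAF/PI3K replicate 1), Lgals4 from -1.55 (without BRAF replicate 3) to 0.55 (without BRAF/PI3K replicate 1) and Vil1 from 0.0088 (without BRAF replicate 1) to 2.88 (without BRAF replicate 2).

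Between 2 and 6 weeks, with genotype held constant, Hnf4a was higher at 6 weeks by 4.57 ± 1.05 on the log2 scale (SE, adjusted p = 0.142 by limma, exact permutation p = 0.0333 within genotype, smallest possible 0.0167). Ctse was higher by 2.10 ± 0.87 (SE, adjusted p = 0.363 by limma, exact permutation p = 0.0833). Both rested on the 2 week BRAF/PI3K libraries. The single 2 week BRAF library had 114 normalized counts of Hnf4a and 639 of Ctse, inside or just above the 6 week BRAF range. Without the 3 libraries rich in endothelial markers, which leaves the 1 BRAF library at 2 weeks, the differences were 0.73 for Hnf4a and -0.60 for Ctse, and without the 2 week BRAF/PI3K replicate 1 alone they were 3.41 and 0.78. Hnf4a and Ctse were the 2 of 5 members with an unadjusted p below 0.05, as were 11.9% of all genes, and neither was among the 9 genes called (0.0513%). Foxa3, Lgals4 and Vil1 had log2 differences of 0.73, -1.93 and -0.35.

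**Figure D3:**
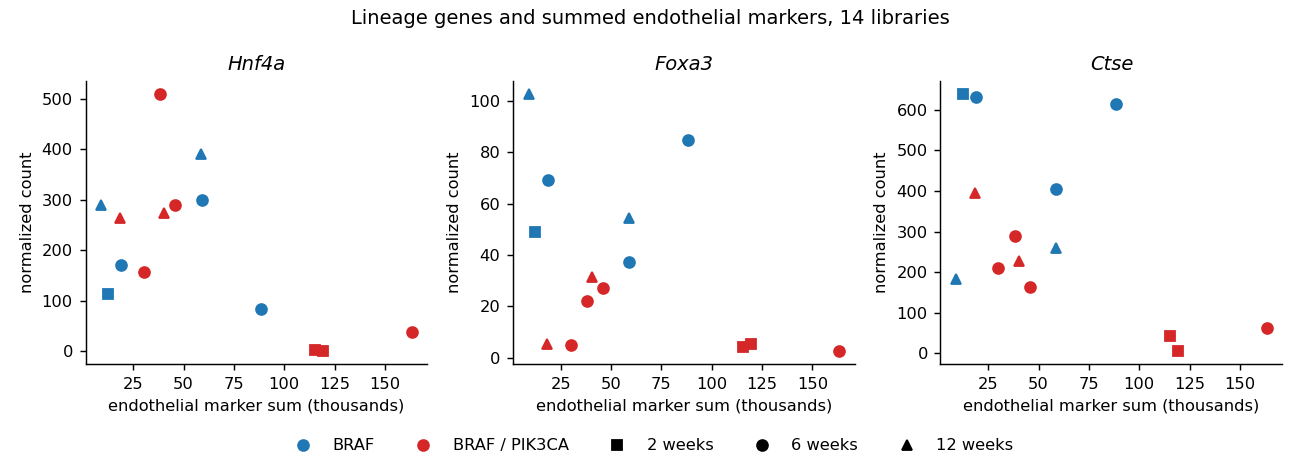
Normalized counts (vertical) of Hnf4a, Foxa3 and Ctse against the sum of 10 endothelial markers (horizontal, in units of 1000) in the 14 libraries of the first table. Colour gives genotype and symbol the week. The 3 BRAF/PI3K libraries with sums from 115511 to 163450 had the lowest Hnf4a values, while Foxa3 was also as low as 5.04 and 5.42 in BRAF/PI3K libraries with sums of 30090 and 18393.

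Whether the genotype difference itself changed with week was tested as an interaction. Its 2 week difference sets 1 BRAF library, assumed to vary like the other groups, against the 2 BRAF/PI3K libraries rich in endothelial markers, so those markers and the genotype cannot be told apart at 2 weeks. From 2 to 6 weeks it changed by 6.29 ± 1.43 (SE, log2) for Hnf4a, with an unadjusted limma p of 0.000827 and an adjusted p of 0.343. For Ctse it changed by 3.53 ± 1.22 (SE, adjusted p = 0.452 by limma), and for Foxa3 by 0.67 ± 1.57 (SE). Hnf4a and Ctse were 2 of 5 members with an unadjusted p below 0.05, where 8.95% of all genes had one. From 6 to 12 weeks no member had one, with 2.87% of all genes. The largest change there in proportion to its error was that of Ctse, 2.22 ± 1.07 (SE, adjusted p = 1.00 by limma).

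Between 6 and 12 weeks none of the 5 measured members passed an unadjusted p of 0.05, as 5.31% of all genes did, and no gene of the table was called by limma (0.0%, with 933 genes at an unadjusted p below 0.05). Hnf4a had a log2 difference of 0.74 ± 0.95 (SE), Foxa3 0.36 ± 0.64, Ctse -0.20 ± 0.79, Lgals4 0.73 ± 1.08 and Vil1 0.25 ± 1.08. Leaving out 1 library at a time, Hnf4a stayed positive (0.39 to 1.10). Foxa3 turned to -0.13 without BRAF/PI3K 12 week replicate 2, Ctse to 0.29 without BRAF 12 week replicate 2 and Vil1 to -0.83 without BRAF 12 week replicate 1. Without BRAF/PI3K 12 week replicate 1, the library with the most macrophage marker signal, Foxa3 was 0.77, Ctse -0.78 and Lgals4 -0.03. Ctse in BRAF alone was 404 or above in all 4 libraries of 2 and 6 weeks and 259 or below in both of 12 weeks, while in BRAF/PI3K the 12 week values of 394 and 228 were inside or above the 6 week range of 62.3 to 290.1.

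In the PGC1a tumors, the 5 measured members overlapped between genotypes. Hnf4a had 305, 445, 432, 614 and 275 normalized counts in PGC1a Het and 412, 947, 325 and 158 in PGC1a Null. The highest and the lowest value of Hnf4a were both PGC1a Null. The means were 414 ± 135 (SD, n = 5) and 461 ± 341 (SD, n = 4), a log2 difference of -0.08 ± 0.42 (SE, exact permutation p = 0.897). Foxa3 had 18.2, 40.8, 39.0, 42.4 and 11.9 in PGC1a Het and 29.5, 63.1, 45.8 and 6.63 in PGC1a Null. Its log2 difference was 0.03 ± 0.64 (SE, exact permutation p = 0.944), and the same 2 PGC1a Null libraries as for Hnf4a (replicates 2 and 4) held the highest and the lowest value. Without replicate 2 of PGC1a Null the differences were -0.52 for Hnf4a and -0.35 for Foxa3, and without replicate 4 they were 0.34 and 0.67.

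Ctse had 41.4 to 160 normalized counts in PGC1a Het and 62.3 to 153 in PGC1a Null, Lgals4 24.4 to 60.5 and 15.4 to 43.6, and Vil1 4.80 to 60.5 and 7.65 to 151. Their log2 differences were 0.13 ± 0.41 (SE), -0.30 ± 0.45 and 0.38 ± 0.85. With 1 library left out Ctse ranged from -0.15 (without PGC1a Het replicate 3) to 0.36 (without PGC1a Null replicate 4), Lgals4 from -0.48 to 0.0012 (without PGC1a Null replicates 4 and 1) and Vil1 from -0.29 to 1.08 (without PGC1a Null replicates 2 and 4). With the mean endothelial marker level as a covariate, added after seeing the data and not overlapping between these genotypes, Hnf4a was 1.74 and Foxa3 2.80. None of the 5 had an unadjusted limma p below 0.05, as 3.83% of all genes did, and no gene was called by limma (0.0%, with 667 genes at an unadjusted p below 0.05). Tff2, the trefoil peptide of gastric mucous neck cells, was listed at 0 in all 5 PGC1a Het libraries and had 4.47, 15.2, 0.952 and 0 in PGC1a Null. The exact permutation p was 0.0476, unadjusted, and with all genes kept in the fit the adjusted limma p was 0.983. The summed airway secretory and goblet markers were higher in every PGC1a Null than in every PGC1a Het library, highest (23994) in the same replicate 2 as Tff2, and their part in the Tff2 values was not tested.

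**Figure D4:**
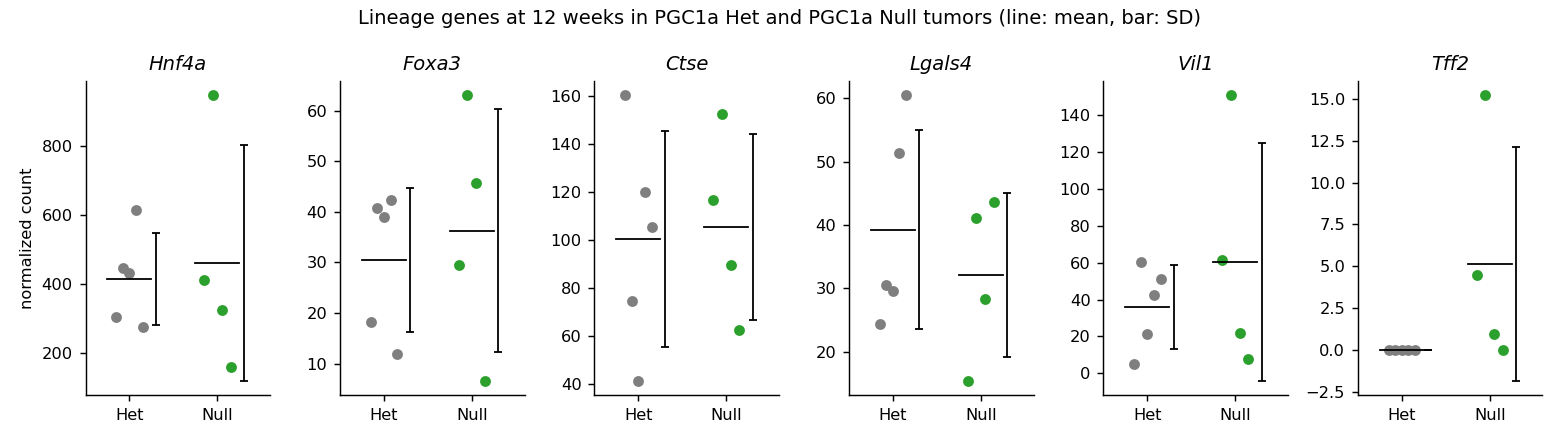
Normalized counts (vertical) of Hnf4a, Foxa3, Ctse, Lgals4, Vil1 and Tff2 in 5 PGC1a Het (grey) and 4 PGC1a Null (green) libraries at 12 weeks. Points are libraries, horizontal lines means and vertical bars the SD, and each gene has its own axis, which does not always start at 0. Tff2 is at 0 in all PGC1a Het libraries and from 0 to 15.2 in PGC1a Null, and all 6 genes overlap between genotypes.

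**Figure D5:**
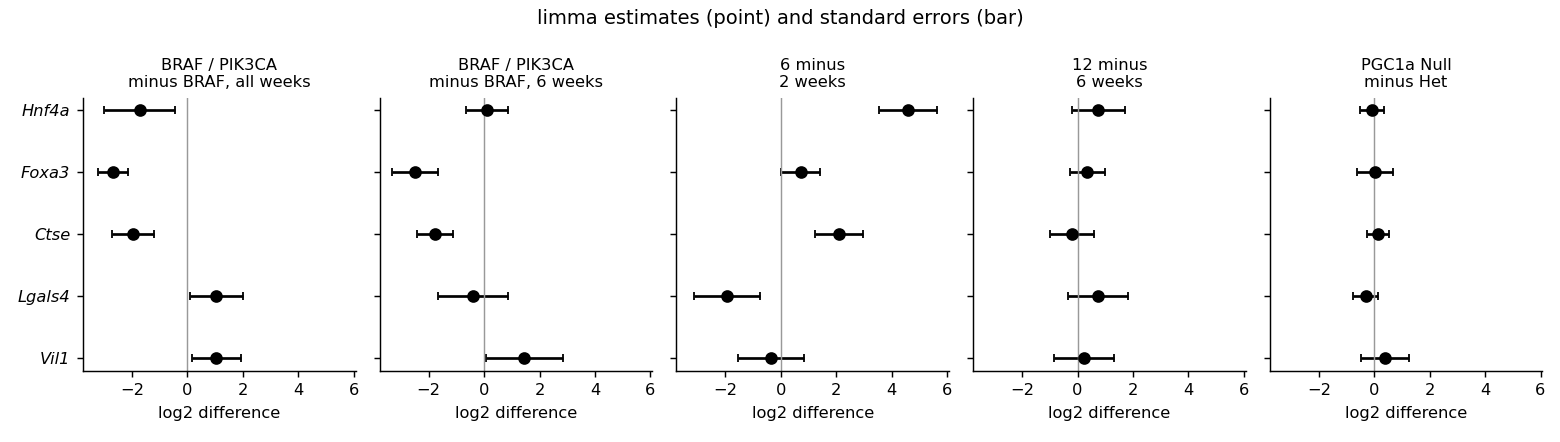
limma differences in log2 (normalized count + 1) (horizontal) for the 5 measured members in the 5 comparisons, with bars of 1 standard error. Foxa3 lies at -2.69 and -2.50 in the genotype comparisons over all weeks and at 6 weeks, and Hnf4a at 4.57 between 2 and 6 weeks.

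Among the transcription factors that accompany these genes, Nkx2-1 had 3352 to 5330 normalized counts in BRAF and 1964 to 5538 in BRAF/PI3K, a log2 difference of -0.22 ± 0.24 (SE, exact permutation p = 0.406). Its 3 lowest values, 1964, 2308 and 2552, were those of the 3 libraries rich in endothelial markers. The difference was -0.56 ± 0.41 (SE) for Foxa1 and -0.84 ± 0.48 (SE) for Foxa2, with adjusted limma p-values of 0.800 and 0.750. Without the 3 libraries rich in endothelial markers the differences were 0.18 for Nkx2-1, -0.29 for Foxa1 and -0.19 for Foxa2. Without the 2 libraries whose Kdm5d went against their sex labels they were -0.37, -0.63 and -1.22. For Foxa2 the exact permutation p was then 0.589 and 0.0411. At 6 weeks all 4 BRAF/PI3K libraries were below all 3 BRAF libraries for Foxa2, as in 2.6% of all genes tested. The means were 157 and 281 and the log2 difference was -0.84 ± 0.42 (SE, exact permutation p = 0.0286, the smallest possible, and adjusted p = 1.00 by limma). In the PGC1a tumors Nkx2-1 had 1897 to 3035 in Het and 1767 to 2212 in Null, a log2 difference of -0.32 ± 0.20 (SE, exact permutation p = 0.0635). Ppargc1a in the first table was 714 on average in BRAF and 211 in BRAF/PI3K, a log2 difference of -1.92 ± 0.45 (SE, adjusted p = 0.225 by limma).

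Levels of the members were also set against those of Nkx2-1 across libraries, in 10 relations (5 members in 2 tables). Over the 14 libraries of the first table Hnf4a had Pearson's r = 0.77 (permutation p = 0.00287, adjusted 0.0287) and Spearman's rho = 0.37 (permutation p = 0.198, adjusted 0.765). The corresponding r was 0.64 for Ctse (permutation p = 0.0138, adjusted 0.0690) and 0.53 for Foxa3 (permutation p = 0.0498, adjusted 0.166), with rho of 0.34 (permutation p = 0.234, adjusted 0.765) and 0.35 (permutation p = 0.214, adjusted 0.765). Leaving out the 2 libraries farthest from the median of Nkx2-1 gave r = 0.68, 0.53 and 0.17. Over the 11 libraries other than the 3 rich in endothelial markers, r was 0.04 for Hnf4a, -0.43 for Ctse and -0.26 for Foxa3, so the positive relations rested on those 3 libraries. Within genotypes r for Hnf4a was 0.14 in the 6 BRAF and 0.82 in the 8 BRAF/PI3K libraries, which include the 3. For Ctse these were -0.27 and 0.74, and for Foxa3 0.40 and 0.63. Lgals4 and Vil1 had r = 0.02 and -0.26 (permutation p = 0.949 and 0.362, adjusted 0.949 and 0.668), with rho of -0.03 and -0.21. In the second table r ranged from -0.09 (Vil1) to 0.37 (Hnf4a), with adjusted permutation p-values from 0.668 to 0.949. Leaving out the 2 farthest libraries there changed r from 0.37 to 0.11 for Hnf4a, from 0.32 to -0.16 for Foxa3, from -0.07 to 0.54 for Ctse, from 0.21 to 0.57 for Lgals4 and from -0.09 to -0.37 for Vil1. Each genotype of the second table has fewer than 6 libraries, so no r within genotypes is given.

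Described across the 14 libraries of the first table, which share their normalization, Hnf4a varied most like Ctse among the members (r = 0.82), and Foxa3 had r = 0.63 with Ctse and 0.55 with Hnf4a. Over the 11 libraries other than the 3 rich in endothelial markers, a choice made after seeing the data, they were -0.60, 0.26 and -0.16. Lgals4 and Vil1 had r between -0.31 and 0.06 with the others and with each other. In the 9 libraries of the second table the closest pair was Hnf4a and Foxa3 (r = 0.88), followed by Hnf4a and Vil1 (r = 0.74). Other genes were searched where their mean was at least 40 (14206 or 14207 in the first table and 12726 or 12727 in the second). Those most like Hnf4a in the first table included Ctsc (r = 0.96) and Pask (0.96). In the second they were Slc39a3 (0.99), Cd44 (0.98) and Slc31a1 (0.97). The genes most like Foxa3 were Gm15920 (r = 0.89), Elovl7 (0.89) and Aass (0.89) in the first table and Zcchc2, Lsr and Atf5 (each 0.98) in the second. Those most like Ctse were Tmem8 (0.96), Sidt1 (0.92) and Crb3 (0.92), then Lgals3bp (0.90), Pip4k2a (0.90) and Ccl9 (0.89). Lgals4 went most with Taf1a (0.86), Ltbp3 (0.83) and Phc2 (0.81), then with Asf1a (0.94), Sbf1 (0.93) and Washc2 (0.93). Vil1 went most with Sulf1 (0.87), Anapc7 (0.80) and Cfap69 (0.79), then with Zfp341 (0.98), Ndufaf2 (0.96) and Jdp2 (0.92). No gene was shared between the tables in these sets.

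Other genes of the same tissues were read from 3 lists. Of 27 gastric genes 26 were in the first table and 10 had a mean of at least 10, of 34 intestinal genes 33 and 15, and of 20 endoderm transcription factors 20 and 14. No gene of these lists passed the adjusted test in any of the 5 comparisons. The most abundant were Cldn18 and Muc1 among gastric genes, Anpep and Lgals3 among intestinal genes and Nkx2-1 and Klf5 among the factors, several of which AT2 cells also express. Muc1, an epithelial mucin, averaged 16595 in BRAF and 9329 in BRAF/PI3K (log2 difference -1.15 ± 0.54, SE, adjusted p = 0.730 by limma), and Cldn18, a claudin shared by lung and stomach, averaged 22331 and 26011 (0.20 ± 0.14, adjusted p = 0.790 by limma). Anpep (aminopeptidase N) had a log2 difference of -0.62, Lgals3 (galectin 3) of 0.01 and Klf5 of -0.31.

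Over all weeks, BRAF/PI3K minus BRAF, 8 of the 10 measured gastric genes and 13 of the 15 intestinal genes were negative, with medians of -0.57 and -0.62, as were 8457 of the 17558 genes tested, with a median of 0.02. The summed AT2 markers were lower and the summed endothelial markers higher in 3 BRAF/PI3K libraries than in any BRAF library, and their part in these counts was not tested. Without these 3 libraries, an alternative chosen after seeing the data, 5 of 10 gastric genes, 9 of 14 intestinal genes and 8438 of 17527 genes tested were negative, with medians of 0.07, -0.34 and 0.02. At an unadjusted limma p below 0.05 over all 14 libraries, which 6.83% of all genes had, Chia1 and Muc1 lay lower and Psca higher among gastric genes, and Apoa1 and Dmbt1 lay lower among intestinal genes. Without the 3 libraries rich in endothelial markers, 0 gastric genes lay lower and 2 higher at this p, 1 intestinal gene lay lower, and 1 factor lay lower and 0 higher, where 1100 of all 17527 genes had such a p. Among the factors, over all 14 libraries, Sox9 lay lower (-2.03 ± 0.48, SE) and Sox17, which endothelial cells also express, higher (1.43 ± 0.53, SE). Apart from Muc1, these genes were named after their values were seen. From 2 to 6 weeks 8 of 10 gastric and 13 of 15 intestinal genes were positive, with medians of 0.66 and 0.66, as were 9031 of the 17558 genes tested, with a median of 0.02. Gkn2, a gastrokine, was among the 3 gastric genes at an unadjusted p below 0.05 (11.9% of all genes), with a log2 difference of 4.33 ± 1.30 (SE, adjusted p = 0.230 by limma), beside Bhlha15 and Muc1. The intestinal ones were Fabp1 (3.98 ± 0.70, SE, adjusted p = 0.0736 by limma), Apoa1 and Gpa33, and the factors included Foxa2 and Klf5. In this comparison as well the 2 week BRAF/PI3K libraries were those rich in endothelial markers. Between PGC1a genotypes 2 of the 17 measured intestinal genes had an unadjusted limma p below 0.05 (3.83% of all genes, with 464 of these 667 higher in PGC1a Null), Fabp1 and Reg3g, both higher in PGC1a Null (2.13 ± 0.68 and 3.17 ± 0.91, SE, adjusted p = 0.878 and 0.704 by limma), and none of the 12 gastric genes or 14 factors did. The summed airway secretory and endothelial markers were also higher in every PGC1a Null library, and their part in these values was not tested. The list genes named for the 2 to 6 week and PGC1a comparisons were likewise chosen after their values were seen.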

How the data were processed

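Both tables hold signal values deposited by the authors, Salmon estimates normalized by DESeq2 (versions not given in the sources used here; the submitters' processing notes name GRCm38), separately for each table. They are not whole counts, so the depth in reads is unknown and no count test was run; nothing was tested across tables. Of 4 deposited tables, 2 hold the authors' own genotype comparisons (fold changes and p-values) and were not used. The 10 genes and all lists were chosen with earlier results of these data known. Values were tested as log2 (normalized count + 1) with limma 3.58.1 in R 4.3.3 (trend, two-sided) for genes with a mean of at least 10 (17558 and 17424 genes), adjusted by Benjamini-Hochberg at 0.05. The fold changes are on this scale and understate those of low genes. Single genes were also compared by two-sided exact permutation tests, and the limma procedure was tested on simulated data. Named genes were the 10, Nkx2-1, Foxa1, Foxa2, Ppargc1a, Pik3ca, list genes with an adjusted p below 0.05, the 2 most abundant of each list, and for each measured member the 3 genes (mean at least 40) with the highest Pearson's r. No list gene had an adjusted p below 0.05, and list genes named by an unadjusted p fall outside this rule. Libraries are separate samples by label. The paper names individual animals among its biological replicates and left out RNA below an integrity limit. Where libraries do not come from separate mice, p-values measure technical spread. Sequence was taken from RefSeq promoters and gene models from GENCODE vM21 (GRCm38). Alternatives were other pseudocounts, filters, normalization, sex, week, replicate number and each library left out. Some genes that this rule or the lists would name are not reported here.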

Additional observations from a re-analysis of the deposited data

How the results depend on the processing

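Precision is set by 1 to 5 libraries a group, and depth in reads is unknown. Replicate numbers did not pair the libraries (same-numbered libraries at 6 weeks correlated at -0.28, -0.03 and -0.01 in their deviations from group means, and PGC1a pairs at -0.47 to 0.21). With the replicate block, 6 genes were called over all weeks against 4 without it, 2 against 4 at 6 weeks, and 0 in the PGC1a comparison as before, and 1 member against 2 had an unadjusted p below 0.05 both over all weeks (923 genes against 1200) and at 6 weeks (513 against 744). Over all weeks the count of members also dropped from 2 to 1 with sex as a factor (887 genes at this p), with only genes of a mean over 40 (983 of 14207, Foxa3 not tested), and, chosen after seeing the data, with the endothelial score as a covariate (1000), without the 2 week libraries (918) and without the 3 libraries rich in endothelial markers (1100). In these Ctse lost its unadjusted p below 0.05, except with the filter, and Foxa3 kept it wherever it was tested. The sex factor used the labels, 2 of which Kdm5d went against. A pseudocount of 4 gave 7 genes called. At 6 weeks 1 gene was called with all genes or with sex, 7 with a pseudocount of 4 or quantile normalization and 10 with the endothelial covariate, and the filter left 1 member (546 of 14207 genes). Between 2 and 6 weeks 3 genes were called with a pseudocount of 4, 4 with quantile normalization or sex, 312 with the endothelial covariate and 0 without the 3 libraries, where no member passed (0, with 1740 genes) and Ctse turned from 2.10 to -0.60, with 1 library left at 2 weeks. In the PGC1a comparison, 1 member (Tff2) had an unadjusted p below 0.05 with all genes (1280 of 33095) and 2 with the endothelial covariate (1722 genes against 667), where Hnf4a turned from -0.08 to 1.74. That covariate does not overlap between the PGC1a genotypes and so cannot be told apart from them. The cause of these changes was not tested. Leaving out 1 library at a time, the genes called ranged from 3 (without BRAF 6 week replicate 1, among others) to 9 (without BRAF/PI3K 12 week replicate 1) over all weeks, from 1 to 12 at 6 weeks (without BRAF 6 week replicate 1, among others, and without either BRAF 12 week library), from 1 to 102 between 2 and 6 weeks (without BRAF/PI3K 2 week replicate 1 and without BRAF 2 week replicate 1), and stayed at 0 in the other comparisons. Members at an unadjusted p below 0.05 ranged from 2 to 2, 1 to 2, 1 to 2, 0 to 0 and 0 to 0, and all genes at this p from 942 to 1485, 544 to 880, 1409 to 2756, 507 to 1417 and 502 to 1002. The member lost was Ctse, at 6 weeks without BRAF replicate 1 or 3 and between 2 and 6 weeks without either 2 week BRAF/PI3K library or without BRAF/PI3K 6 week replicate 2.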
